A study of Mus musculus with 4 samples.

Results

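The classical MHC class I presentation pathway is described here by 10 of the 32285 genes in the tables. They were taken by symbol: H2-K1 and H2-D1 (the heavy chains), B2m (the light chain), Tap1, Tap2 and Tapbp (peptide transport and loading), Psmb8, Psmb9 and Psmb10 (the immunoproteasome) and Nlrc5 (a regulator of the others). All 10 passed the filter on low counts in every comparison. They were measured with 10x Genomics Visium, an array of barcoded spots that binds RNA released by overlying tissue, on 4 frozen tumor sections, 1 per mouse. The tumors grew from MC38, a colon carcinoma line derived from C57BL/6, injected under the skin of female F1 hosts that were 8 to 12 weeks old. The 2 CC075F1 hosts (C57BL/6J x CC075/UncJ) represent the study's responder strain for anti-PD-1 and the 2 CC080F1 hosts (C57BL/6J x CC080/TauUncJ) its non-responder strain. Once tumors measured 75 to 110 mm3, every mouse got 200 µg of isotype antibody (2A3), and tumors were collected after 48 hours, so the sections show no effect of anti-PD-1. Host cells carry 1 C57BL/6J and 1 Collaborative Cross genome, whereas the implanted tumor cells carry neither Collaborative Cross genome. A spot holds several cells, and in such mixtures fewer cells of a type and less RNA per cell cannot be told apart.

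Class I molecules carry peptides from inside the cell to its surface, where CD8+ T cells read them. The proteasome cuts proteins into peptides, the Tap1-Tap2 transporter moves the peptides into the endoplasmic reticulum, and tapasin (Tapbp) holds the empty heavy chain and B2m next to that transporter until a peptide is bound. Interferon gamma induces most of these genes through factors that include Irf1 and Nlrc5, and exchanges the catalytic subunits of the standard proteasome for Psmb8, Psmb9 and Psmb10. In tumors the pathway is active in cancer cells as well as in macrophages, dendritic cells and stroma.

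On chromosome 17 (GRCm38) lie 7 members, within or near the H2 complex, the mouse MHC: Tapbp (chr17:33915899-33929292), H2-K1 (chr17:33996017-34000347), Psmb9 (chr17:34181987-34187764), Tap1 (chr17:34187553-34197225), Psmb8 (chr17:34197721-34201454), Tap2 (chr17:34203527-34216321) and H2-D1 (chr17:35262730-35267499). B2m lies at chr2:122147686-122153083, Nlrc5 at chr8:94434356-94527272 and Psmb10 at chr8:105935735-105938444. The gene records of Psmb9 and Tap1 overlap on opposite strands, and their RefSeq promoter windows of 300 bases share 275 bases, with 225 bases between the start sites. The hosts carry a second parental genome while the reads were counted on a C57BL/6J reference. The effect of other alleles on the counts was not tested for any member, on chromosome 17 or elsewhere. On that reference, 0 of 411 windows of 90 bases at the 3' end of each member were shared exactly with another gene.

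Promoter sequence is shown for the 2 heavy chains, the pair with the highest r across spots when pairs are ranked by their lowest section, and for their partner B2m (RefSeq, GRCm38.p6, 5′ to 3′ on the strand of the gene). Capitals mark an NF-kB site (the first run in H2-K1 and H2-D1), an interferon-type motif (GAANNGAAA on either strand in the heavy chains, and a pair of GAAA copies with 2 bases between in B2m), and TGACG, the core of the X2 box that the class I enhanceosome uses. The H2-K1 stretch is chr17:34000378-34000464 (minus strand), the H2-D1 stretch is the 30-base part from the NF-kB site to the interferon-type motif at chr17:35262923-35262952 (plus strand), and the B2m stretch is chr2:122147542-122147619 (plus strand). The H2-D1 stretch lies before its RefSeq start but inside the gene record given above, which begins earlier, and overlaps 1 annotated untranslated region.
H2-K1: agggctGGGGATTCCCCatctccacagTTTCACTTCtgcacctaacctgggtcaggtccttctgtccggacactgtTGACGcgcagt
H2-D1: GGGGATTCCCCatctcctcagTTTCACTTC
B2m: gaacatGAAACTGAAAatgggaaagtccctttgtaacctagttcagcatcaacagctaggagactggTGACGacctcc

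The 87-base stretch of H2-K1 and its counterpart in H2-D1 were identical at 81 positions (93.1%). The NF-kB site was searched on both strands as 1 exact string, the first run of capitals in the H2-K1 stretch. Other forms of the site were not searched, so whether windows without this string hold another form was not tested. The exact string was present in 2 of the 8 members with a window, H2-K1 and H2-D1, and in 0.0304% of 32851 windows of all genes. GAANNGAAA was found in the same 2 members and in 7.52% of all windows, and the pair of GAAA copies in B2m alone and in 3.44% of all windows. TGACG occurred in 5 of 8 members against 20.8% of all windows. TTCNNNGAA occurred in 1 of 8, Psmb8, against 8.30%, and CCAAT in 6 of 8 against 37.4%. For TGACG and for CCAAT, Tap1 and Psmb9 hold the same single site in their shared bases, which was counted for both genes. A match of letters is a description of the window and not a site of binding.

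The sections held 2710 and 3276 spots in CC075F1 and 2787 and 3174 in CC080F1, with totals from 82594649 to 146460975 UMIs (1 UMI marks 1 captured RNA molecule). One spot of CC075F1 replicate 1 had 0 UMIs and was left out of the values per spot. CC075F1 replicate 2 stood apart: 36.3% of its UMIs came from 84 ribosomal protein genes, against 24.9% to 29.6% in the other 3 sections, and its TMM factor (a scaling that sets the bulk of genes equal between sections) was 0.745 against 1.07 to 1.16. With that factor, UMIs scaled by the library total alone (CPM) place the genes of this section lower than TMM-scaled CPM does. Both scales are given where they differ, and the part of the ribosomal share in the factor was not tested. The 4 MC38 markers (Shisal2b, Krt8, Krt18 and Epcam) summed to 123 to 268 CPM, nearly all of it Shisal2b. Shisal2b was at 145 and 252 CPM in CC075F1 and 123 and 267 CPM in CC080F1. Krt8, Krt18 and Epcam were at 0.0107 to 0.382 CPM, too few UMIs to mark tumor cells. Of the fixed positions on the slide, 1666 barcodes were used in all 4 sections, as the array design gives, and no library batch is stated in the labels.

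Both heavy chains and the light chain had higher values in CC075F1, without passing the test across genes. For H2-K1, TMM-scaled CPM came to 2210 in CC075F1 replicate 1, 2734 in CC075F1 replicate 2, 1251 in CC080F1 replicate 1 and 1592 in CC080F1 replicate 2. The means were 2472 ± 371 and 1421 ± 241 (SD, n = 2 each), a log2 difference of 0.80 ± 0.39 (SE; adjusted p = 0.830, edgeR quasi-likelihood test with Benjamini-Hochberg adjustment, used for all adjusted p unless DESeq2 is named). The strains did not overlap on this scale, nor did they on CPM by library total, where the values were 2387, 2036, 1457 and 1698 in the same order.

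H2-D1, the other heavy chain, had CC075F1 values of 1629 and 1965 TMM-scaled CPM and CC080F1 values of 1173 and 1209, a log2 difference of 0.59 ± 0.36 (adjusted p = 0.830). Its 2 CC080F1 sections were close to each other and both lay below CC075F1. B2m, which pairs with every class I heavy chain, had CC075F1 values of 2931 and 4280 and CC080F1 values of 2020 and 2217, a log2 difference of 0.77 ± 0.43 (adjusted p = 0.830). The high value of CC075F1 replicate 2 rests on the scaling: by library total B2m was at 3166 and 3187 CPM in CC075F1 and 2353 and 2365 CPM in CC080F1, so that replicates differed little and the strains did not overlap.

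In the loading complex, the strains did not overlap for the transporter subunit Tap1 on the TMM scale but overlapped for its partner Tap2 and for tapasin. Tap1 had CC075F1 values of 191 and 199 TMM-scaled CPM and CC080F1 values of 103 and 141, a log2 difference of 0.67 ± 0.25 (unadjusted p = 0.0294, adjusted p = 0.814 by edgeR). By library total its strains overlapped, since CC075F1 replicate 2 (148 CPM) lay just below CC080F1 replicate 2 (151 CPM). Tap2, the other subunit of the transporter, had CC075F1 values of 77.5 and 81.8 and CC080F1 values of 79.6 and 68.1, with overlap between strains and a log2 difference of 0.11 ± 0.19. Tapbp had CC075F1 values of 362 and 365 and CC080F1 values of 324 and 379, a log2 difference of 0.05 ± 0.26. With library size alone the fitted log2 differences of Tap2 and Tapbp were -0.19 and -0.24, so neither gene has a settled direction.

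Among the immunoproteasome subunits, Psmb9 had the largest log2 difference with all 4 sections in the fit. Psmb9 (subunit beta 1i) had CC075F1 values of 154 and 214 TMM-scaled CPM and CC080F1 values of 96.2 and 98.4, a log2 difference of 0.92 ± 0.25 (unadjusted p = 0.00718, adjusted p = 0.506 by edgeR). By library total it was at 167 and 159 CPM against 112 and 105 CPM, again without overlap. Psmb8 (beta 5i) had CC075F1 values of 613 and 924 and CC080F1 values of 448 and 479, a log2 difference of 0.73 ± 0.33 (adjusted p = 0.830). The strains did not overlap for this subunit on either scale. Psmb10 (beta 2i) had CC075F1 values of 354 and 448 and CC080F1 values of 306 and 321, a log2 difference of 0.35 ± 0.27 (adjusted p = 0.831), and overlapped between strains by library total.

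Nlrc5, the transactivator that assembles on class I promoters, had CC075F1 values of 66.4 and 49.1 TMM-scaled CPM and CC080F1 values of 29.1 and 41.6. The log2 difference was 0.71 ± 0.25 (unadjusted p = 0.0228, adjusted p = 0.756 by edgeR). Its level in CC075F1 replicate 1 stood above the other 3 sections, and by library total CC075F1 replicate 2 (36.5 CPM) fell between the CC080F1 sections (33.9 and 44.3 CPM).

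**Figure D1:**
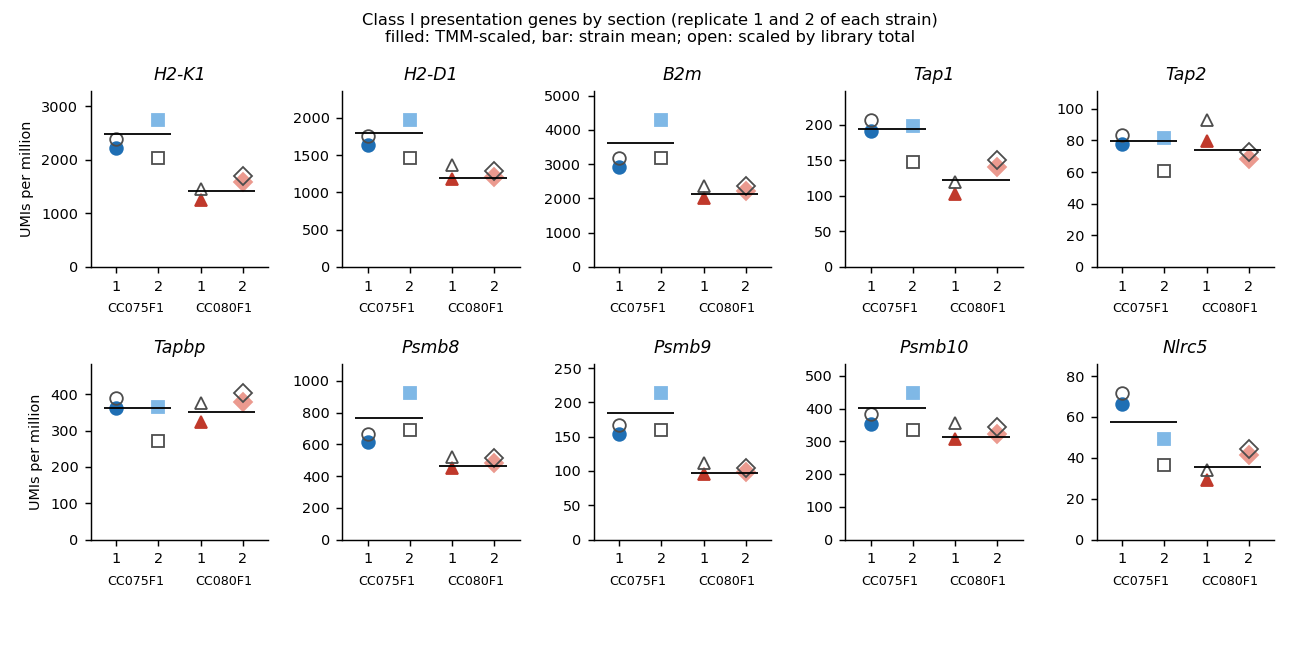
TMM-scaled CPM (filled symbols, black bar at the strain mean) and CPM by library total (open symbols) of each member in the 2 CC075F1 and 2 CC080F1 sections, on linear axes that start at 0. On the TMM scale 8 of 10 members have both CC075F1 sections above both CC080F1 sections; Tap2 and Tapbp overlap, and CC075F1 replicate 2 moves most between scales.

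Across the 10 members, 0 passed an adjusted p of 0.05 for strain by edgeR, where 0.0899% of 15572 genes did (0.0578% higher and 0.0321% lower in CC075F1), and 3 had an unadjusted p under 0.05 against 5.43% of all genes. All 10 fitted differences were positive, against 47.5% of all genes, with a median of 0.69 against -0.02 over all genes. The 2 CC075F1 values exceeded the 2 CC080F1 values in 8 of 10 members on the TMM scale, where 16.2% of all genes did so, and in 5 of 10 by library total (H2-K1, H2-D1, B2m, Psmb8 and Psmb9), where 6.63% did. The simulated comparison of these sections recovered 20% of 2-fold and 97% of 4-fold changes, and the largest fitted fold among the members was 1.89. With library size alone the median of all genes moved to -0.31 and that of the members to 0.39, and relative to those medians the members stayed apart by a like amount. DESeq2 and a fit with no filter on low counts each called Psmb9 (adjusted p = 0.0248 by DESeq2 and 0.0483 by edgeR without the filter), while its adjusted p ranged up to 1.00 over all alternatives. Leaving out 1 section moved the log2 differences to between 0.18 and 0.52 for Psmb10, 0.41 and 1.00 for Psmb8 and 0.48 and 1.02 for B2m, each lowest without CC075F1 replicate 2 and highest without CC075F1 replicate 1.

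Sums of some cell type lists differed between strains too. The summed T cell list (7 genes, all detected) was at 62.9 and 51.7 CPM in CC075F1 and 17.2 and 14.9 CPM in CC080F1, with Cd3g past the threshold. The macrophage list (7 genes) was at 5019 and 3341 CPM against 3043 and 3113 CPM, the endothelial list (4 genes) at 60.4 and 45.3 CPM against 111 and 75.2 CPM, and the fibroblast list (5 genes) at 1785 and 938 CPM against 2696 and 2423 CPM. Col3a1 and Dcn made up most of the fibroblast sum. Col3a1 was at 1141 and 334 CPM against 1992 and 1409 CPM, and Dcn at 545 and 374 CPM against 565 and 816 CPM. On the TMM scale 3 of the 5 fibroblast genes had a positive log2 difference (median 0.07). The part of these cells in the strain values of the members was not tested.

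The exchange of proteasome subunits was compared within each section, which removes the scaling. Summed UMIs of Psmb8, Psmb9 and Psmb10 over those of their constitutive counterparts Psmb5, Psmb6 and Psmb7 gave 1.86 and 1.76 in CC075F1 and 1.41 and 1.57 in CC080F1. The means were 1.81 ± 0.0699 and 1.49 ± 0.119 (SD, n = 2 each), a ratio of 1.22, and the strains did not overlap (two-sided exact permutation p = 0.333, the smallest that 2 against 2 sections can give). Each pair had the same order. Psmb8 to Psmb5 was 2.94 and 2.93 in CC075F1 against 2.26 and 2.59 in CC080F1, Psmb9 to Psmb6 was 0.840 and 0.697 against 0.531 and 0.555, and Psmb10 to Psmb7 was 1.69 and 1.62 against 1.36 and 1.54. The pair of Psmb9 and Psmb6 differed most between strains, with a ratio of means of 1.42. In interior spots alone the summed ratio of strain means was 1.18.

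The 2 heavy chains were also set against each other. UMIs of H2-K1 over UMIs of H2-D1 came to 1.36 and 1.39 in CC075F1 and to 1.07 and 1.32 in CC080F1. The strains did not overlap (exact permutation p = 0.333), but the difference of the means (0.183) was about the spread of the CC080F1 sections (SD 0.177). Without CC080F1 replicate 1 the ratio of strain means went from 1.15 to 1.04.

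Nlrc5 was sparse enough for its share of spots to be informative, while every other member was seen in at least 85.9% of spots. At least 1 Nlrc5 UMI was found in 81.7% of spots of CC075F1 replicate 1 (exact Clopper-Pearson 95% interval 80.2% to 83.2%), 74.9% of replicate 2 (73.4% to 76.4%), 65.2% of CC080F1 replicate 1 (63.4% to 66.9%) and 70.5% of replicate 2 (68.9% to 72.1%). These intervals cover counting error only. After thinning every spot to 5000 UMIs, which left out 18 to 58 shallower spots a section, the shares were 28.5%, 17.1%, 16.1% and 20.5%, and CC075F1 replicate 2 fell below CC080F1 replicate 2, the order that CPM by library total had. The shares before thinning therefore set no order between the strains (exact permutation p = 0.333).

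The wider pathway was followed in 28 further genes: the proteasome activator (Psme1, Psme2), the 3 constitutive subunits, 7 loading and trimming genes, 10 regulators and 6 genes of interferon gamma input. Of these 28, 0 passed for strain by edgeR, 15 had a positive difference and 2 had an unadjusted p under 0.05. Among the latter was Ifng, the cytokine gene itself. It was at 2.38 and 3.07 TMM-scaled CPM in CC075F1 and 0.422 and 0.882 in CC080F1, a log2 difference of 2.06 ± 0.46 (unadjusted p = 0.00275, adjusted p = 0.348 by edgeR). Proteasome activator genes had a median log2 difference of 0.61 and the constitutive subunits 0.45, whereas the loading and trimming genes had a median of -0.12 with 1 of 7 positive.

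Across the spots of a section most pairs of members had a weak positive correlation. On log2(UMIs per 10000 + 1), the median Pearson r over the 45 pairs was 0.136 and 0.196 for CC075F1 and 0.126 and 0.206 for CC080F1, with a mean of 0.166 ± 0.0409 (SD, n = 4). The strains overlapped (exact permutation p = 1). Of the 45 pairs, 41 were positive in all 4 sections. Each other gene seen in at least 90% of spots was set against the mean of the 10 members, each scaled to SD 1. Those r had a median of 0.108, 0.0728, 0.0125 and 0.0357 and a 95th percentile of 0.236, 0.302, 0.140 and 0.215. They are not r between pairs of genes and give no background for the pairs of members. Pairs of other genes were not correlated, so no share over all genes stands beside the 41 of 45. When the counts of each spot were summed with those of its adjacent spots, the medians over the 45 pairs of members were 0.273, 0.463, 0.287 and 0.453. That alternative was chosen after seeing the data. Thinning to 10000 UMIs, without 53 to 205 shallower spots a section, brought the medians of the pairs down to 0.0539, 0.0852, 0.0415 and 0.103. These are descriptions over 2709 to 3276 spots that share a library, and a low r in sparse counts carries counting noise.

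By the lowest of its 4 values the closest pair was H2-K1 with H2-D1, whose promoter stretches are shown above, at r = 0.290 and 0.446 in CC075F1 and 0.345 and 0.578 in CC080F1. Tapbp with Psmb10 (0.247, 0.370, 0.227 and 0.356, in the same order of sections) and Psmb8 with Psmb10 (0.241, 0.423, 0.221 and 0.344) came next. In CC080F1 replicate 1 H2-D1 with B2m was higher, at 0.379. Psmb8, on chromosome 17, and Psmb10, on chromosome 8, were thus among the closest pairs without being neighbours. Tap1 with Psmb9, which share a promoter region, had lower values of 0.157, 0.245, 0.130 and 0.245. Both are sparser genes. In spots thinned to 5000 UMIs, Tap1 had a mean of 0.61 to 1.06 UMIs and Psmb9 of 0.55 to 0.86. Psmb8 had 2.59 to 3.54 and Psmb10 1.73 to 1.98. The part of counting noise in the order of these pairs was not tested. Nlrc5 with the other 9 had a median r of 0.110, 0.111, 0.0709 and 0.147.

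B2m left the group in 1 section. Its r with the mean of the other 9 members was 0.339 in CC075F1 replicate 1, 0.332 and 0.408 in CC080F1, and 0.0503 in CC075F1 replicate 2. All 4 negative pairs came from that section and involved B2m, with B2m and Psmb10 at -0.107. In the same section B2m had an r of 0.474 with spot depth and 0.259 with the ribosomal share, while Psmb10 had -0.167 and -0.550. The part of depth and of ribosomal RNA in this was not tested.

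**Figure D2:**
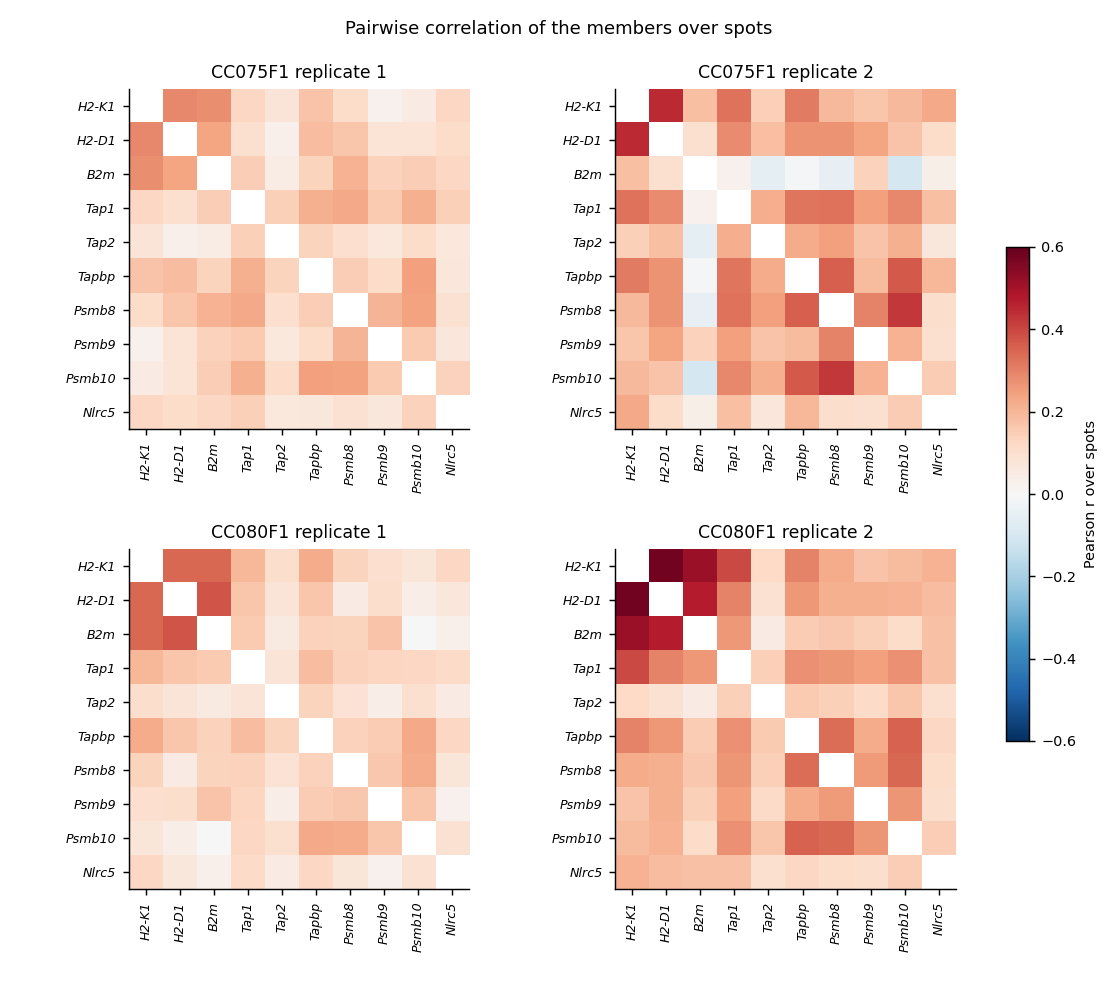
Pearson r over spots for each pair of members on log2(UMIs per 10000 + 1), 1 panel per section, with the diagonal left blank. H2-K1, H2-D1 and B2m form the darkest block in both CC080F1 sections, and the row of B2m turns pale or blue in CC075F1 replicate 2, where its r with Psmb10 is -0.107.

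The placement of the joint level was described by a member score. This score, the mean of the 10 genes each scaled to SD 1 in its section, had a Moran's I (similarity of adjacent spots, near 0 for none) of 0.387 and 0.576 for CC075F1 and 0.463 and 0.561 for CC080F1. A mean of 10 genes carries less counting noise than a single gene. Single genes seen in at least 90% of spots had a median of 0.0803, 0.113, 0.0568 and 0.122 and a 95th percentile of 0.320, 0.559, 0.407 and 0.506. The correlation of the score between spots fell with distance, from 0.263 at 2 steps to 0.0239 at 12 steps in CC075F1 replicate 1 and from 0.494 to 0.188 in CC075F1 replicate 2. In CC080F1 it fell from 0.349 to 0.0295 and from 0.424 to 0.0549, and was highest at 12 steps in CC075F1 replicate 2. Among single members H2-K1 had a Moran's I of 0.301, 0.406, 0.367 and 0.549, and Tap2 one of 0.0653, 0.0965, 0.0480 and 0.0389.

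**Figure D3:**
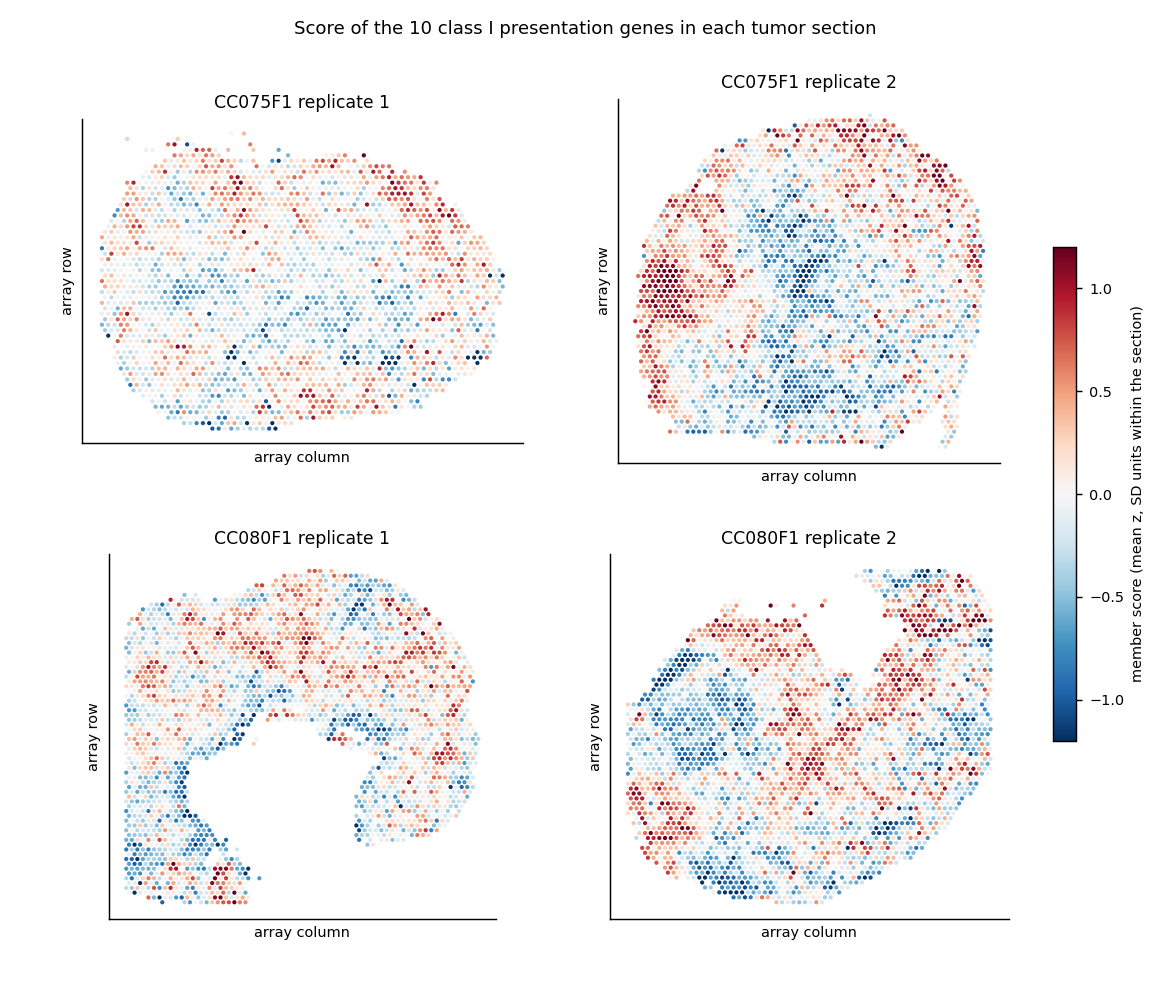
Member score in every spot of the 4 sections, drawn at its place on the array (row and column, not to a common orientation), red above and blue below the mean of the section, in SD units. High and low spots lie in patches in every section, with Moran's I from 0.387 to 0.576, with a large red patch at the left rim of CC075F1 replicate 2 and blue spots along the gap of CC080F1 replicate 1.

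Among 10173 other genes seen in at least 10% of spots of every section, those most like the member score, by the lowest of their 4 r values, were AW112010, Gbp2, Cd74, Psap, H2-Aa, Cst3, H2-Ab1, Bst2, C1qb and Ifitm3. Gbp2, an interferon-induced GTPase, had r = 0.489 and 0.626 in CC075F1 and 0.384 and 0.573 in CC080F1. AW112010, an interferon-inducible transcript, ranked first with 0.434, 0.568, 0.404 and 0.477. Cd74, H2-Aa and H2-Ab1 belong to the class II pathway of antigen-presenting cells, and C1qb and Cst3 are abundant in macrophages. Irf1, a transcription factor induced by interferon, ranked 18 (0.299, 0.381, 0.270 and 0.337).

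Cxcl9, an interferon gamma-induced chemokine, ranked 11 with r = 0.414, 0.654, 0.297 and 0.565, whereas Cd8a, the CD8 T cell co-receptor, was at 0.10, 0.130, 0.0384 and 0.123. The macrophage list had r of 0.315, 0.438, 0.385 and 0.364 with the score, the fibroblast list 0.220, 0.328, 0.167 and 0.318, the T cell list 0.168, 0.255, 0.106 and 0.226, and the MC38 list between 0.00236 and 0.0373. Genes of a list had equal weight in these r, and Krt8, Krt18 and Epcam of the MC38 list were at no more than 0.382 CPM. The r of that list therefore cannot tell whether the score goes with tumor cell content. The score also went against the ribosomal share of a spot (r = -0.249, -0.578, -0.0746 and -0.557), and with ribosomal protein genes left out of the depth the median pairwise r was 0.121, 0.137, 0.123 and 0.145. The members were not alike in their partners. Tap1 had r of 0.323, 0.463, 0.246 and 0.395 with Cxcl9 and H2-K1 0.0961, 0.339, 0.110 and 0.372, whereas with the macrophage list H2-K1 had 0.293, 0.294, 0.315 and 0.298 and Tap1 0.0935, 0.335, 0.174 and 0.147.

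Placement by distance from the edge was compared next, taking as edge every spot at most 3 steps away from an off-tissue position (568 and 665 spots in CC075F1, 880 and 648 in CC080F1). In CC075F1 the transporter, the immunoproteasome and Nlrc5 had higher values at the edge than in the interior, and in CC080F1 most of them did not. The mean log2 ratio of edge to interior CPM over the 10 members was 0.19 and 0.27 in CC075F1 and -0.15 and -0.05 in CC080F1. The difference of the strain means was 0.33 (exact permutation p = 0.333), and in deep spots without muscle, skin or fat it was 0.34. With enclosed holes filled the difference was 0.31. Both CC080F1 sections also had a wide gap open to the outside, along which edge spots lay, and its part in the edge values was not tested. With TMM scaling the section means were 0.13, 0.04, -0.17 and -0.03, a difference of the strain means of 0.18, and both CC075F1 sections stayed above both CC080F1 sections.

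Tap1 had the highest edge ratio in CC075F1. It measured 263 CPM at the edge and 198 in the interior of replicate 1, and 206 and 139 in replicate 2. In CC080F1 it measured 112 at the edge and 124 in the interior of replicate 1, and 155 and 150 in replicate 2. By distance, Tap1 in CC075F1 went from 279 and 215 CPM in the outermost step to 159 and 109 CPM in the deepest bin, lower at every bin in replicate 1 and at all but 1 in replicate 2. In CC080F1 the outermost and deepest bins held 113 and 119 CPM in replicate 1, and 154 and 143 CPM in replicate 2.

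Nlrc5 measured 86.9 CPM at the edge and 69.4 in the interior of CC075F1 replicate 1, and 47.6 and 34.9 in replicate 2, against 33.0 and 34.2 in CC080F1 replicate 1 and 39.9 and 45.2 in replicate 2. Its edge ratio was thus above 0 on the log2 scale in both CC075F1 sections and below 0 in both CC080F1 sections. Psmb10 had the same pattern, its log2 ratios being 0.24 and 0.26 for CC075F1 but -0.30 and -0.20 for CC080F1. Psmb9 (0.21, 0.30, -0.37 and -0.01), Tap2 (0.37, 0.41, -0.13 and -0.01) and Tapbp (0.17, 0.30, -0.21 and -0.12) also changed sign between strains by library total. The share of all genes that did so was not counted on that scale.

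The class I chains themselves were nearly level. H2-K1 had log2 edge ratios of 0.04, 0.13, -0.03 and 0.001, and B2m of -0.03, -0.10, -0.06 and -0.05, in the same order of sections. H2-D1 ran from -0.02 to 0.18. By library total the chains thus had smaller edge ratios in CC075F1 than Tap1, Tap2 and Nlrc5 had, although TMM scaling set B2m at -0.33 in CC075F1 replicate 2.

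**Figure D4:**
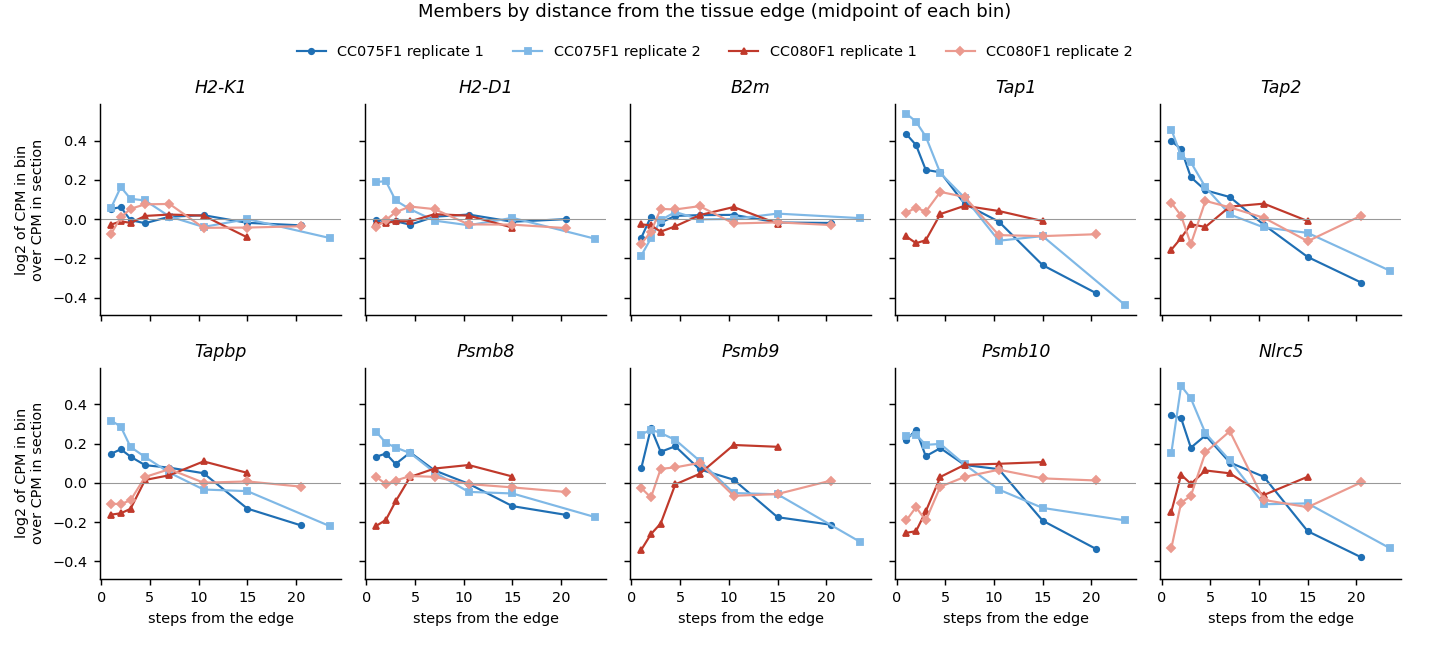
Each member by distance from the tissue edge: the horizontal axis gives steps between spots (midpoint of each bin, at least 175 spots a bin), the vertical axis the log2 ratio of CPM in the bin to CPM in the whole section, and each line is 1 section. The 2 CC075F1 lines fall inward for Tap1, from 0.43 and 0.54 to -0.38 and -0.44, while those of H2-K1, H2-D1 and B2m stay between -0.19 and 0.19.

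Over all sections, edgeR called 0 of 10 members between edge and interior, where 1.1% of 15089 genes were called (1% higher and 0.0994% lower at the edge). The fitted log2 differences ran from -0.13 for B2m to 0.15 for Tap1, and 0 members had an unadjusted p under 0.05 against 18.3% of genes. In the test of the difference itself, strain by edge, 0 of 10 members passed where 0.106% of genes did (0.0862% more and 0.0199% less toward the edge in CC075F1), and 4 had an unadjusted p under 0.05 against 8.5% of all genes. These were Nlrc5 (log2 0.35 ± 0.11 more toward the edge in CC075F1, adjusted p = 0.361 by edgeR), Tap1 (0.38 ± 0.12, adjusted p = 0.393), Psmb10 (0.34 ± 0.12, adjusted p = 0.483) and Tap2 (0.31 ± 0.11, adjusted p = 0.505). The median over members was 0.27 against -0.03 over all genes. Both CC075F1 edge ratios lay above both CC080F1 ratios in 6 of 10 members on the TMM scale, where 16.4% of genes did so, and the sign differed between strains in 3 of 10 (Nlrc5, Psmb10 and Tapbp) against 4.2%.

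Of the 28 wider pathway genes, 0 were called for the edge and 0 for strain by edge. For strain by edge, 4 had an unadjusted p under 0.05 by edgeR, among them Irf1 (log2 0.45 ± 0.14), Irf8 (0.42 ± 0.13) and Socs1 (0.25 ± 0.11). Other cells moved with the edge as well. The summed T cell list was at 77.3 CPM at the edge and 60.6 in the interior of CC075F1 replicate 1, 71.4 and 48.8 in replicate 2, 16.6 and 17.5 in CC080F1 replicate 1, and 22.0 and 13.5 in replicate 2. Skeletal muscle genes were at 956 CPM at the edge of CC075F1 replicate 2 and 14.2 in its interior, and at 3.35 to 15.6 CPM elsewhere. Fibroblast genes of that section were at 2099 and 764 CPM. Some lists had a strain-by-edge order like that of the members. The cDC1 list (4 genes, Irf8 among them) was at 59.0 CPM at the edge and 42.7 in the interior of CC075F1 replicate 1 and at 51.7 and 30.4 in replicate 2, against 27.2 and 29.5 in CC080F1 replicate 1 and 37.9 and 34.7 in replicate 2. The NK cell list (4 genes) was at 26.4 and 22.4, 46.4 and 34.1, 6.26 and 6.43, and 24.2 and 32.5 CPM in the same order. The endothelial list was at 109 and 52.7, 78.9 and 40.2, 122 and 107, and 95.4 and 71.4 CPM. The median depth at the edge was 18032 to 30120 UMIs against 33592 to 46146 in the interior. Their part in the edge values was not tested.

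**Figure D5:**
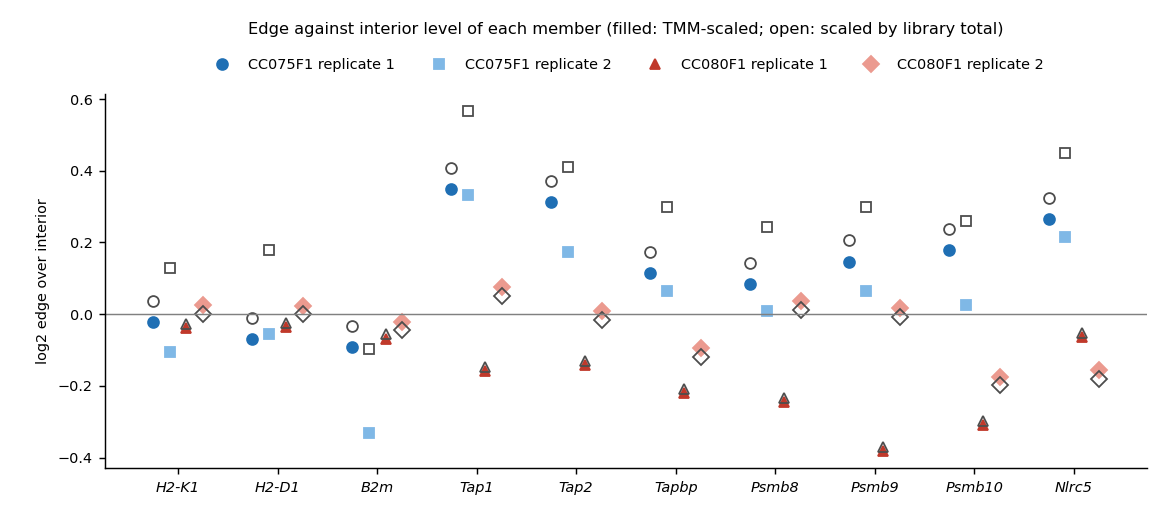
Log2 ratio of edge to interior level of each member in each section, with TMM scaling (filled) and by library total (open), and a line at 0. Symbols of CC075F1 lie above those of CC080F1 for Tap1, Tap2, Tapbp, Psmb9, Psmb10 and Nlrc5 on both scales, and scaling lowers all values of CC075F1 replicate 2.

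To compare the members where T cell RNA was present, each section was split by spots with and without a UMI of Cd3d, Cd3e, Cd3g, Cd8a or Cd8b1. Together these genes mark T cells in general, not only the CD8+ T cells that read class I. Marked spots made up 67.3% and 67.9% of CC075F1 and 30.2% and 24.7% of CC080F1. Of the 10 members 1, Tap1, was called, higher in marked spots, where 5.73% of 15158 genes were called (3.09% higher and 2.64% lower), and its change was small. An unadjusted p under 0.05 was reached by 6 members against 18.7% of genes, and 9 differences were positive against 48.6%. Tap1 measured 210 CPM in marked and 199 in unmarked spots of CC075F1 replicate 1, 155 and 133 in replicate 2, 121 and 120 in CC080F1 replicate 1, and 171 and 143 in replicate 2. It was higher in 4 of 4 sections, with a log2 difference of 0.11 ± 0.03 (adjusted p = 0.0352 by edgeR). The call was lost without CC075F1 replicate 1 (log2 0.12, adjusted p = 0.0730), without CC075F1 replicate 2 (log2 0.10, adjusted p = 0.143) and without CC080F1 replicate 2 (log2 0.06, adjusted p = 0.374 by edgeR), and over all alternatives the adjusted p ran from 0.000131 to 0.374.

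Psmb10 (log2 0.07 ± 0.02, adjusted p = 0.0509), Nlrc5 (0.10 ± 0.03, adjusted p = 0.0677) and Tapbp (0.07 ± 0.02, adjusted p = 0.0715 by edgeR) were just outside the threshold. The chains had differences smaller than their errors. H2-K1 and H2-D1 had log2 differences of 0.01 ± 0.02 each and B2m of -0.003 ± 0.03. Marked spots were deeper, with medians of 32635 against 27837 and 42331 against 41191 UMIs in the CC075F1 sections and 36175 against 32636 and 36511 against 33964 UMIs in the CC080F1 sections. With every spot thinned to 10000 UMIs the log2 difference of Tap1 was 0.12 (adjusted p = 0.188 by edgeR).

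Of the 28 wider pathway genes, 5 were called higher in marked spots and 0 lower. Among them were Irf1 (log2 0.12 ± 0.02, adjusted p = 0.00475), the myeloid and dendritic cell factor Irf8 (0.19 ± 0.04, adjusted p = 0.00609), Ifng (0.75 ± 0.15, adjusted p = 0.00774) and the feedback inhibitor Socs1 (0.15 ± 0.04, adjusted p = 0.0240 by edgeR). Ifng, which T cells and NK cells make, was at 2.49 TMM-scaled CPM in marked and 2.09 in unmarked spots of CC075F1 replicate 1, 3.53 and 1.97 in replicate 2, 0.587 and 0.339 in CC080F1 replicate 1, and 1.51 and 0.650 in replicate 2. Macrophage genes Csf1r and C1qa (2 of 7) and all 4 endothelial genes were also called higher in marked spots, and the part of these cells was not tested. Cxcl9 rose by 0.46 ± 0.05 on the log2 scale (adjusted p = 6.59e-05 by edgeR).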

How the data were processed

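The 4 Visium sections came from 1 tumor each. The authors aligned reads to GRCm38 with GENCODE vM23 annotation in Space Ranger 1.3.1, and deposited unnormalized UMI counts for each gene in each tissue spot. The submitters' processing notes also name Seurat 5.0.1. No normalized values were used, and the position lists gave the grid. Here counts were summed per section, or per edge, interior, T cell-marked or unmarked spots, filtered with filterByExpr and fitted by quasi-likelihood in edgeR 4.0.16 (R 4.3.3) with TMM factors, with the section as a block where it held 2 sums. P-values were adjusted over all genes with a threshold of 0.05. The study's shuffling of spots was not used, because spots are not replicates. DESeq2 1.42.0, limma 3.58.1 and the other alternatives are described in the closing section. Values per section were compared by two-sided exact permutation tests, which cannot fall below 0.333. Section totals ran from 82594649 to 146460975 UMIs, and counting error is small beside the spread between tumors. Simulated data (200 changed genes) gave 20% of 2-fold and 97% of 4-fold changes for strain over 15388 genes, and 73% and 100% for edge over 14843 genes. Promoters came from RefSeq (GRCm38.p6; 8 of 10 members matched), positions from GENCODE vM21. Named are all members, wider pathway genes past the threshold (those with an unadjusted p under 0.05 were added after their values were seen) and the 10 genes most like the score. For 1 gene of the wider lists, counted with the others, values are not reported here. The members and lists were chosen with earlier results of these data known. For strain, p-values measure the spread between these 2 tumors per strain. Where the section was a block, they measure how the contrast within a section varied between the 4 sections.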

Additional observations from a re-analysis of the deposited data

Results flagged for a closer look

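Edge to interior log2 CPM ratios by library total had opposite directions for 5 members and for the mean over all 10, which were flagged for it. They were above 0 in both CC075F1 sections and below 0 in both CC080F1 sections. The share of all genes with these signs was not counted on this scale. On the TMM scale it was 4.2% of 15089 genes. With library size alone the median strain-by-edge difference of all genes was 0.13, against -0.03 with TMM. The difference of the strain means, CC075F1 minus CC080F1, was 0.46 for Tap2, 0.40 for Tapbp, 0.44 for Psmb9, 0.50 for Psmb10, 0.50 for Nlrc5 and 0.33 for the mean over the 10 members. The edgeR test of the difference itself passed for 0 of these 5 genes, with adjusted p from 0.361 for Nlrc5 to 0.624 for Psmb9. With TMM scaling the difference of the mean over the members was 0.18, and the opposite signs were kept by Nlrc5, Psmb10 and Tapbp, while Tap2 and Psmb9 reached 0.01 and 0.02 in CC080F1 replicate 2. With the edge set at 5 steps the mean over the members in CC080F1 replicate 2 was 0.00936, so the opposite sign of the mean rests on the depth of the edge in that section. In CC080F1 replicate 1 the edge took 31.6% of spots, against 20.3% to 21.0% in the other 3 sections, and the part of its shape was not tested.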

How the results depend on the processing

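For strain, 1 member (Psmb9) was called by DESeq2 and 1 without a filter on low counts, and 0 by the other alternatives, leave-one-out included (0 to 0). The replicate numbers are shared by the strains, but nothing ties same-numbered mice (correlation of deviations 0.165 over only 2 pairs). With the replicate block, 0 members and 287 genes were called, against 14 without it. The counts of all genes called also moved with the tool: 194 by DESeq2, 480 without the filter, 40 with library size alone. With library size alone Tap2 was at -0.19 and Tapbp at -0.24, and leaving out 1 section Tapbp ranged from -0.057 to 0.178. For edge against interior, 0 members were called under any alternative run, but signs of small differences turned. With library size alone H2-K1 was at 0.036, H2-D1 at 0.037, Tapbp at 0.036, Psmb8 at 0.042, Psmb9 at 0.034 and Psmb10 at 0.00084. With an edge of 5 steps Psmb8 was at 0.0098 and Psmb9 at 0.015. Leaving out 1 section gave -0.089 to 0.023 for Tapbp, -0.071 to 0.039 for Psmb8, -0.104 to 0.071 for Psmb9 and -0.158 to 0.0050 for Psmb10, all lowest without CC075F1 replicate 1 and highest without CC080F1 replicate 1, and -0.0059 to 0.137 for Nlrc5. All genes called for the edge ranged from 4 without CC080F1 replicate 2 to 1005 without CC080F1 replicate 1, with 630 by DESeq2 and 683 without the filter, against 166. For strain by edge, 0 members were called under any alternative, and with library size alone H2-K1 and H2-D1 turned to 0.10 each, as the median of all genes moved to 0.13. All genes called for strain by edge ranged from 1 without CC075F1 replicate 2 to 532 without the filter, against 16. For T cell-marked spots the number of members called was 2 at a minimum of 2 UMIs, 5 with library size alone, 5 without the filter, 0 with thinning to 10000 UMIs, 0 by DESeq2, and 0 to 2 leaving out 1 section. B2m turned to 0.0028, 0.034 and 0.0060 under the first 3 of these. Leaving out 1 section gave -0.026 to 0.027 for B2m, -0.016 to 0.027 for H2-K1 and -0.016 to 0.029 for H2-D1, lowest without CC080F1 replicate 2 and highest without CC075F1 replicate 2. All genes called ranged from 253 by DESeq2 and 287 with thinning to 1262 without the filter, against 869. The median pairwise correlation, averaged over the 4 sections, was 0.0709 with thinning and 0.369 with adjacent spots summed, and the strain ratio of Nlrc5 shares was 1.40 at a minimum of 2 UMIs and 1.31 with thinning to 10000 UMIs. The immunoproteasome and H2-K1 to H2-D1 ratios and the edge ratio kept their direction in all alternatives run, the edge ratio at 0.18 with TMM scaling against 0.33. Alternatives without ribosomal protein genes, with adjacent spots and with TMM scaling of the edge ratio were chosen after seeing the data. Where no value shows it, the cause of a change was not tested.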
